A study of Homo sapiens with 23 samples.

Results

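The genes described here are 68 protein-coding genes whose products act beside the cytosolic ribosome in the initiation, elongation and termination of translation. They were chosen by a rule on gene names, with earlier results of these data known. The set holds every protein-coding gene whose symbol starts with EIF or EEF followed by a digit, the release factor genes ETF1, GSPT1 and GSPT2, and the poly(A)-binding protein genes PABPC1 and PABPC4. The kinases of eIF2, EIF4EBP1, EEF1E1, Y-linked genes and pseudogenes were left out by the same rule. All 68 genes were listed in both count tables, among 61806 genes in the first libraries and 42901 genes in the deep libraries. By role, 5 genes were placed in start codon selection, 6 in the delivery of the initiator tRNA, 5 in the exchange factor eIF2B and 14 in eIF3. Another 12 were placed in cap binding and scanning, 3 as eIF4E-binding proteins and 2 in subunit joining. EIF1AD was placed in start codon selection for its likeness to eIF1A, which does not show that it acts there. Of the elongation genes, 3 encode eIF5A proteins, 5 encode eEF1 subunits, 1 encodes eEF2 and 7 encode enzymes that modify elongation factors, and a further 3 genes act in termination and 2 in poly(A) binding.

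RNA-seq was carried out on A549 cells, an established human lung adenocarcinoma line, after depletion of THUMPD3, an enzyme that methylates guanosine in tRNA. The siRNA group siD3 #3 had 3 libraries and its siControl group 2 libraries, while shD3 #1, shD3 #4 and their own controls, sh1Control and sh4Control, had 3 libraries each. A further 3 libraries of sh1Control and 3 of shD3 #1 were sequenced more deeply and are called the deep libraries. The question for the translation factor genes was how the level of each differed between a knockdown and its own controls. The shRNAs were expressed from an integrated, doxycycline-inducible pLKO-Tet-On lentiviral vector in cells selected with puromycin, whereas the siRNA was transfected transiently and those cells were harvested a day earlier. The labels give the genotype of all controls as WT and that of all depleted samples as THUMPD3 knockdown. The study's methods call the controls untreated, and whether the shRNA lines are single clones was not given in the sources used here. The labels call the replicates biological without saying what was repeated, so the p-values measure the spread between these libraries.

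Total counts ranged from 9854294 to 22101059 in the first libraries and from 27285889 to 59974740 in the deep libraries. Deep sh1Control had 51101905 to 59974740 counts and deep shD3 #1 had 27285889 to 35458367, so that depth went with condition there. The part of depth in the deep calls of genes at low levels, such as EIF2S3B, EIF3CL and EIF5AL1, was not tested. THUMPD3 stood at 51.3% of its control mean in shD3 #1, 31.4% in shD3 #4, 17.1% in siD3 #3 and 49.6% in deep shD3 #1, with no overlap between groups. An exact 2-sided permutation test of THUMPD3, which doubles the smaller tail, gave p = 0.1 in each comparison of 3 against 3 libraries and p = 0.2 for siD3 #3. These are the smallest values that a test of this form can give at these group sizes. All 8 epithelial markers of the line were present, with KRT8 between 1233 and 3414 cpm (counts scaled to library size by TMM). EPCAM was the lowest of them, at 1.94 to 21.0 cpm, and KRT19 stood at 19.7 to 139 cpm. Of the other cell types, the summed level of 3 endothelial markers reached 1.55 cpm and that of 3 fibroblast markers 28.0 cpm. The 4 leukocyte markers were at or near 0 except CD68, which stood at 45.3 to 48.9 cpm in deep sh1Control, at 89.6 to 97.7 cpm in deep shD3 #1 and at up to 0.407 cpm in the first libraries. CD68 is the neighbour of EIF4A1, a gene that was itself counted differently in the tables, and its part in the deep comparison was not tested.

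Translation begins when eIF2 carries the initiator tRNA to the small ribosomal subunit, eIF1, eIF1A and eIF3 hold that subunit open, and the eIF4 factors bring it to the capped mRNA. After the large subunit has joined, eEF1A delivers each aminoacyl-tRNA, eEF2 moves the ribosome along by a codon, and eIF5A helps at difficult peptide bonds, until eRF1 and eRF3 release the finished protein. Cells control this machinery mainly through phosphorylation of eIF2, through the proteins that sequester eIF4E, and through eEF2 kinase, while the mRNAs of many elongation factors and of nearly all ribosomal proteins carry a 5′ terminal oligopyrimidine (TOP) tract that places their translation under mTOR. The measurements here are of mRNA, and in bulk samples fewer cells of a type and less RNA per cell cannot be told apart.

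The start sites of several of these genes show that tract, and a selection of them is given here with 10 bases before and 20 bases from the RefSeq start on GRCh38.p14. The capitals mark the tract, a C at the annotated start followed by at least 4 further C or T letters on the sense strand. The windows lie on chr6:73521013-73521042 (minus strand) for EEF1A1, chr19:3985444-3985473 (minus) for EEF2, chr2:206159885-206159914 (plus) for EEF1B2 and chr19:38619178-38619207 (plus) for EIF3K. Those of EIF3F, EIF4B and EIF4A2 lie on chr11:7987327-7987356, chr12:53006446-53006475 and chr3:186783567-186783596, all on the plus strand. EIF2S3 on chrX:24054946-24054975 and EIF2S3B on chr12:10505880-10505909, both on the plus strand, are shown together because the second is a near-identical copy of the first, with 28 of 30 bases alike in this window. EEF2K on chr16:22206268-22206297 (plus) and EIF4A3 on chr17:80147109-80147138 (minus) are shown as genes without the tract. Each window covers the start of the first exon.
EEF1A1: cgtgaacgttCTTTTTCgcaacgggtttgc
EEF2: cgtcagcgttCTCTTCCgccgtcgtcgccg
EEF1B2: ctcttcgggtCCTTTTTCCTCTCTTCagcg
EIF3K: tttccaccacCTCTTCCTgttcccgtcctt
EIF3F: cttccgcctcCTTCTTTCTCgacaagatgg
EIF4B: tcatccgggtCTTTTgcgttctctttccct
EIF4A2: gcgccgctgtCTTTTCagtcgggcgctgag
EIF2S3: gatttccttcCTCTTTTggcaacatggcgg
EIF2S3B: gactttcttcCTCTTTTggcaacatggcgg
EEF2K: gcccgcttctgctcaacctagaccagcccc
EIF4A3: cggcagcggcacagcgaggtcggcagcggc

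The tract was found at the start of 13 of the 54 members searched (24.1%), against 5.14% of all 27305 genes with such a window and 47 of 63 ribosomal protein genes (74.6%). This search was added after the values were known. The other genes with the tract were EIF2A, EIF2D, EIF3D and EIF3M. A match describes the letters at an annotated start, and the same gene can start elsewhere in these cells. The remaining 14 members were not searched.

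Per kilobase of annotated exon, the levels in sh1Control spanned from 186 ± 10.7 cpm (SD, n = 3) for EEF2, the translocase, down to EIF4E1B and EEF1AKMT4-ECE2, both listed at 0. EEF1A1 followed at 151 ± 8.86 cpm per kilobase and EIF4G2, a scaffold of eIF4G type that does not bind eIF4E, at 126 ± 2.19. EIF5A came next at 102 ± 5.22, EIF2S3 at 84.9 ± 1.16 and EIF3A at 70.4 ± 4.81. Each of these neighbours in the order lay further apart than the sum of their SDs. The 7 enzymes that modify elongation factors were among the lower levels, with EEF2K highest at 6.89 cpm per kilobase. The 0 of EEF1AKMT4-ECE2 gives no level, since 100% of its exon bases also belong to other genes. In siControl, EEF1A1 (233 ± 11.2, n = 2) stood above EEF2 (209 ± 8.26, n = 2), so that the order of the leading genes was not the same in all control groups. Together the members took 0.940% ± 0.0305 of all counts in sh1Control (SD, n = 3), 1.06% ± 0.0689 in sh4Control (n = 3) and 1.21% ± 0.0580 in siControl (n = 2).

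In the shD3 #1 cells the translation factor genes moved in both directions, and in shD3 #4 and siD3 #3 cells most of those that changed fell. A gene is called past the adjusted p when its Benjamini-Hochberg adjusted p-value from edgeR was under 0.05, and past both thresholds when it had also changed at least 1.5-fold in either direction. In shD3 #1, 63 members were tested, of which 20 rose (31.7%, against 28.5% of all genes tested) and 18 fell (28.6%, against 27.9%) at the adjusted p. Their median log2 fold change was 0.05 and that of all genes -0.01. Thus the share that changed in this knockdown was near that of all genes. In shD3 #4, 3 of 63 rose (4.76%, against 20.1% of all genes) and 38 fell (60.3%, against 21.1%), with a median of -0.25 beside 0.01 for all genes. In siD3 #3, 2 of 63 rose (3.17%, against 16.8%) and 22 fell (34.9%, against 16.6%), with a median of -0.15 beside 0.03. Without replicate 1 of siD3 #3 the number that fell was 9. In the deep libraries of shD3 #1, 17 of 65 rose (26.2%, against 31.2%) and 25 fell (38.5%, against 31.6%), with a median of -0.04 beside -0.015. These calls were repeated with each library left out in turn. In siD3 #3, 7 of the 22 that fell and 1 of the 2 that rose passed whichever library was left out. The same held for 31 of the 38 that fell and 2 of the 3 that rose in shD3 #4, for 14 of 18 and 15 of 20 in shD3 #1, and for 22 of 25 and 13 of 17 in deep shD3 #1.

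**Figure D1:**
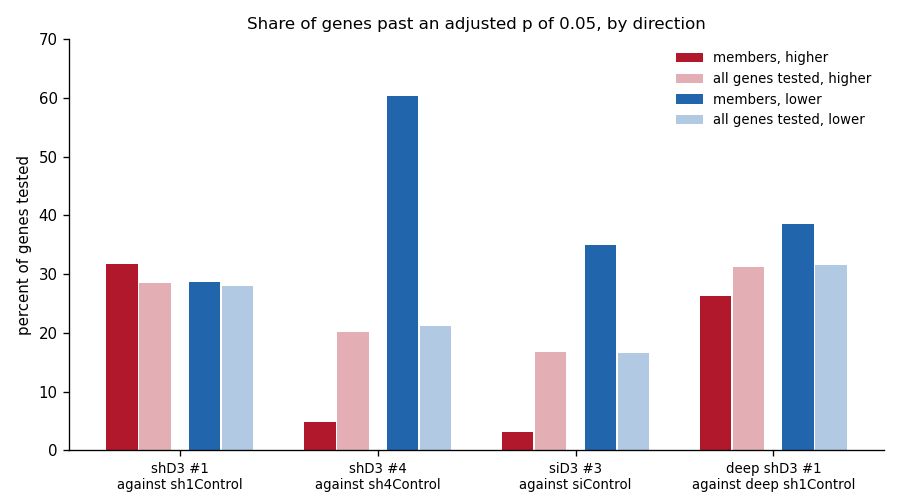
Bars give the percent of genes tested that passed an adjusted p of 0.05 in each of the 4 comparisons, red for higher and blue for lower, with solid bars for the translation factor genes and pale bars for all genes. In shD3 #4 the solid blue bar stands at 60.3% beside a pale bar of 21.1%, while in shD3 #1 solid and pale bars lie close together.

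Few of these changes were large. Past both thresholds, 4 members rose and 7 fell in shD3 #1, where 14.3% of all genes rose and 14.6% fell, and these 11 became 7 without replicate 2 of sh1Control. No member rose and 3 fell in shD3 #4 (all genes 7.99% and 4.52%). In siD3 #3, 1 rose and 4 fell (12.5% and 9.36%), and in deep shD3 #1 none rose and 7 fell (15.0% and 14.1%). Not tested for want of counts were EIF3CL, EIF4E1B, EIF4EBP3, EEF1AKMT4-ECE2 and EEF1G in the first libraries, and EIF4E1B, EIF4A1 and EEF1AKMT4-ECE2 in the deep libraries.

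**Figure D2:**
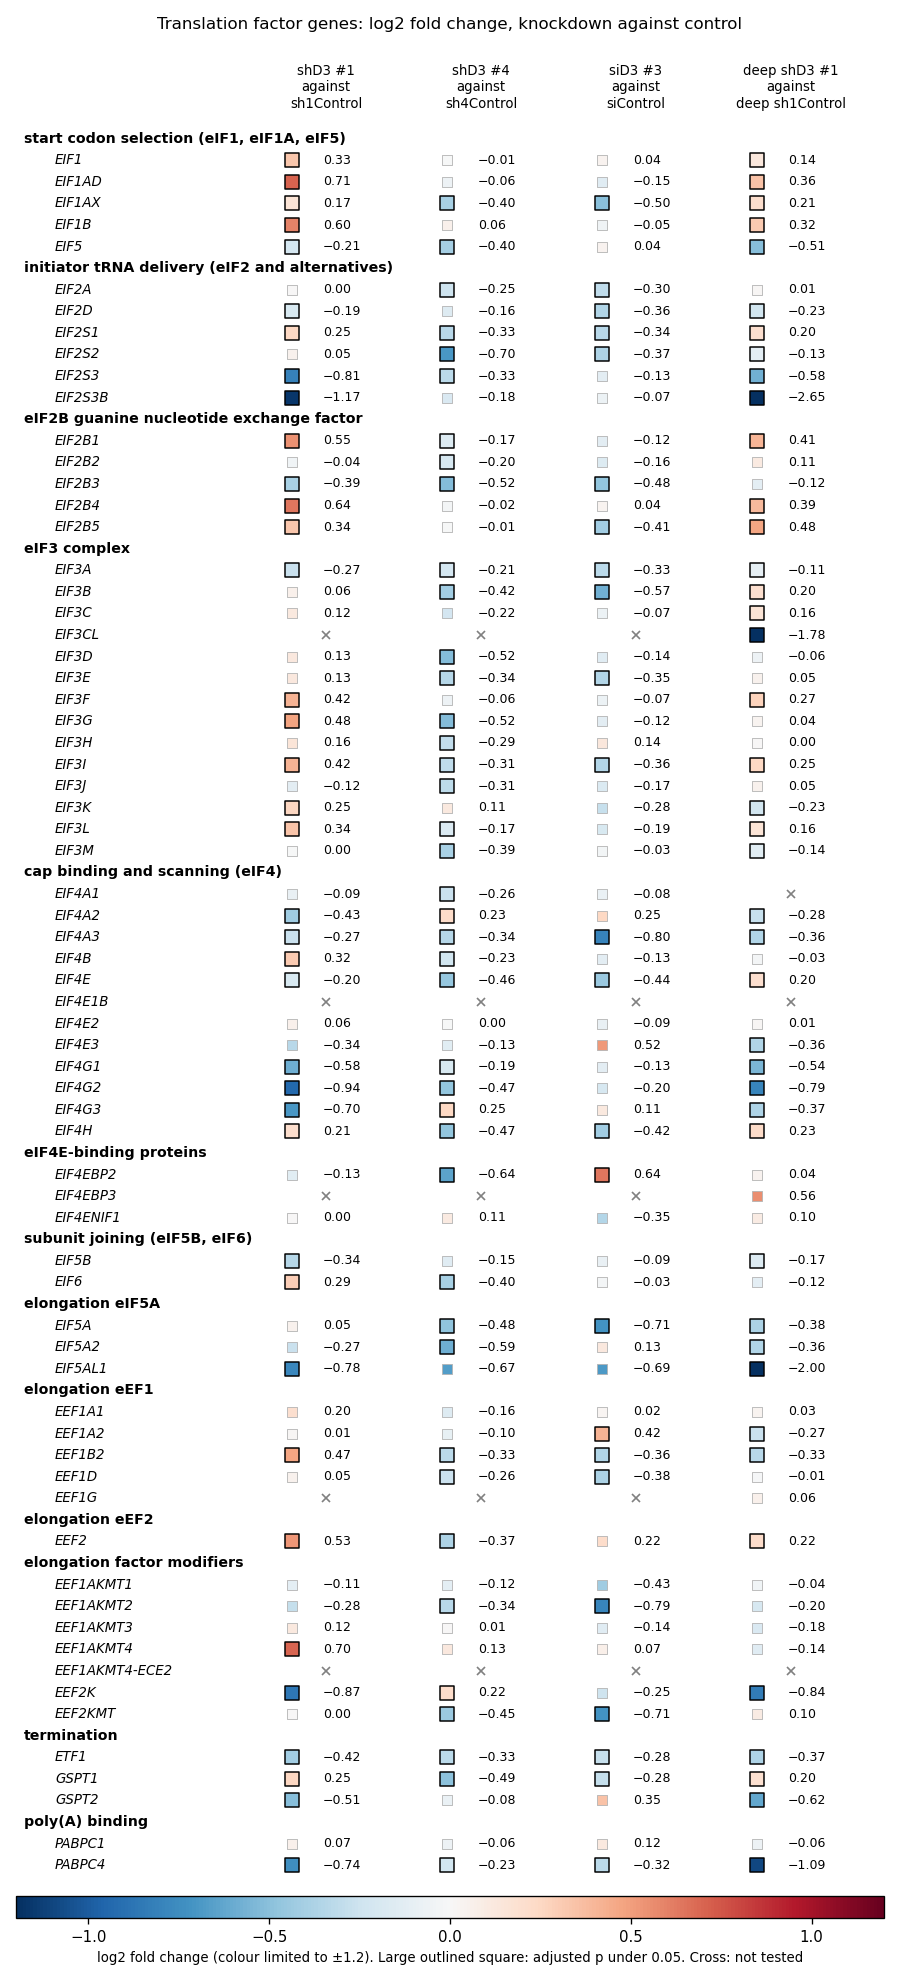
Each row is a gene, grouped by role, and each column a knockdown against its own controls; colour and number give the log2 fold change, large outlined squares an adjusted p under 0.05 and crosses genes not tested. The shD3 #4 column holds 38 outlined blue squares and 3 outlined red ones, and the shD3 #1 column 18 and 20.

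Of the genes placed in start codon selection, 4 of 5, EIF1AD among them, rose and 1 fell in the first libraries of shD3 #1 and in the deep ones. Over all genes, 28.5% rose and 27.9% fell in the first libraries, and 31.2% and 31.6% in the deep ones. The deep call of EIF1 was lost without replicate 2 of deep sh1Control. That of EIF1B was lost on leaving out any deep sh1Control library or replicate 3 of deep shD3 #1. EIF1AD, which encodes an eIF1A-like protein, stood at 26.9, 25.8 and 28.2 cpm in sh1Control and at 42.0, 41.7 and 49.2 cpm in shD3 #1. The groups did not overlap, and the log2 fold change was 0.71 ± 0.08 (SE) with an adjusted p of 1.37e-07. Deep shD3 #1 libraries gave a rise of 0.36 ± 0.06 (adjusted p = 4.91e-05), and in shD3 #4 it differed by -0.06 ± 0.09 (adjusted p = 0.597). EIF1B, a close relative of the scanning factor eIF1, rose from 6.28, 5.63 and 6.35 cpm to 9.24, 8.99 and 9.57 cpm in shD3 #1 (log2 fold change 0.60 ± 0.12, adjusted p = 0.000232). It was under 1.5-fold without sh1Control replicate 2, without shD3 #1 replicate 3, with no filter on low counts and in 1 fit of all 17 libraries, with an adjusted p still under 0.05. EIF1 itself rose by 0.33 ± 0.06 in shD3 #1 (adjusted p = 0.000136) and differed by -0.01 ± 0.07 in shD3 #4 (adjusted p = 0.928). EIF1AX, the eIF1A gene on the X chromosome, rose by 0.17 ± 0.06 in shD3 #1 (adjusted p = 0.0312, a call lost on leaving out any sh1Control library or shD3 #1 replicate 1) and fell by 0.40 ± 0.07 in shD3 #4 (adjusted p = 2.75e-05) and by 0.50 ± 0.09 in siD3 #3 (adjusted p = 0.00268). EIF5, which triggers GTP hydrolysis by eIF2, went the other way in shD3 #1, falling by 0.21 ± 0.06 in the first (adjusted p = 0.00323) and 0.51 ± 0.05 in the deep libraries (adjusted p = 1.90e-08).

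The 3 subunits of eIF2, which forms the ternary complex with GTP and the initiator tRNA, all fell in shD3 #4 and differed from each other in shD3 #1. The share of all genes that fell in shD3 #4 was 21.1%. EIF2S3, the gamma subunit that binds GTP and the initiator tRNA, stood at 348, 341 and 350 cpm in sh1Control and at 209, 196 and 189 cpm in shD3 #1. All 3 knockdown libraries lay below all controls, at 57.1% of the control mean (log2 fold change -0.81 ± 0.06, adjusted p = 1.71e-10). It fell by 0.58 ± 0.04 in deep shD3 #1 (adjusted p = 1.76e-10) and by 0.33 ± 0.07 in shD3 #4 (adjusted p = 0.000112), and its difference in siD3 #3 was -0.13 ± 0.11 (adjusted p = 0.393). EIF2S2, the beta subunit, stood at 123, 124 and 104 cpm in sh4Control and at 69.5, 74.5 and 72.1 cpm in shD3 #4. It fell there by 0.70 ± 0.07 (adjusted p = 2.75e-10), the lowest log2 fold change of any member in that knockdown, and in shD3 #1 it differed by 0.05 ± 0.08 (adjusted p = 0.621). EIF2S1, the alpha subunit whose phosphorylation slows initiation, rose by 0.25 ± 0.07 in shD3 #1 (adjusted p = 0.00525) and fell by 0.33 ± 0.07 in shD3 #4 (adjusted p = 8.90e-05) and by 0.34 ± 0.08 in siD3 #3 (adjusted p = 0.0143). Its call in shD3 #1 was lost without sh1Control replicate 2. Its call in siD3 #3 was lost without either siControl library and without siD3 #3 replicate 1.

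EIF2S3B, the copy of EIF2S3, was at 0.675, 0.986 and 0.857 cpm in sh1Control and at 0.335, 0.426 and 0.306 cpm in shD3 #1, from 3 to 17 counts a library. In the deep libraries it went from 2.79, 2.44 and 1.86 cpm to 0.293, 0.659 and 0.222 cpm, a log2 fold change of -2.65 ± 0.30 (adjusted p = 2.11e-07). In the first libraries the change was -1.17 ± 0.40 (adjusted p = 0.0159), and its adjusted p was over 0.05 without sh1Control replicate 2, without shD3 #1 replicate 1 and in DESeq2. Because its sequence is nearly that of EIF2S3, how reads were divided between them is uncertain. The alternative initiator tRNA factors EIF2A and EIF2D fell in siD3 #3 by 0.30 ± 0.08 (adjusted p = 0.0196) and 0.36 ± 0.11 (adjusted p = 0.0343), calls that were both lost without siControl replicate 1 and without replicate 1 or 2 of siD3 #3.

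The subunits of eIF2B, which recharges eIF2 with GTP, did not move as a block. In shD3 #1 EIF2B1, EIF2B4 and EIF2B5 rose while EIF2B3 fell, and in shD3 #4 EIF2B1, EIF2B2 and EIF2B3 fell. The fall of EIF2B1 in shD3 #4 (adjusted p = 0.0476) was lost on leaving out any 1 of the 6 libraries, and that of EIF2B2 on leaving out any of 4 of them. EIF2B4, the delta subunit, stood at 29.4, 27.8 and 30.7 cpm in sh1Control and at 46.3, 46.0 and 44.8 cpm in shD3 #1, with no overlap (log2 fold change 0.64 ± 0.07, adjusted p = 1.14e-07). EIF2B1, the alpha subunit, rose by 0.55 ± 0.07 (adjusted p = 1.01e-06) and EIF2B5, the catalytic epsilon subunit, by 0.34 ± 0.07 (adjusted p = 0.000248). In the deep libraries the same 3 genes rose by 0.39 ± 0.05, 0.41 ± 0.06 and 0.48 ± 0.06 for EIF2B4, EIF2B1 and EIF2B5. EIF2B3, the gamma subunit, fell in all first knockdowns, by 0.39 ± 0.09 in shD3 #1 (adjusted p = 0.00144), 0.52 ± 0.09 in shD3 #4 (adjusted p = 2.66e-05) and 0.48 ± 0.12 in siD3 #3 (adjusted p = 0.0137). EIF2B5 fell by 0.41 ± 0.09 in siD3 #3 (adjusted p = 0.00904), opposite to its direction in shD3 #1. The siD3 #3 calls of EIF2B3 and EIF2B5 were both lost without siControl replicate 1, and that of EIF2B3 also without siD3 #3 replicate 1.

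The eIF3 complex, the scaffold that holds the small subunit for initiation, was the largest role and none of its changes in the first libraries reached 1.5-fold. In shD3 #4, 10 of its 13 tested genes fell (76.9%, against 21.1% of all genes) and none rose (against 20.1%), with a median of -0.31. In shD3 #1, 5 rose (38.5%, against 28.5%) and 1 fell (7.69%, against 27.9%), with a median of 0.13. The rise of EIF3L there was lost without sh1Control replicate 2. ENSG00000279738 covers 41.1% of the exon bases of EIF3L, so its level is uncertain. In siD3 #3, 4 fell (30.8%, against 16.6%) and none rose (against 16.8%). Of these 4, only EIF3B passed whichever library was left out. EIF3G, an RNA-binding subunit that acts in scanning, stood at 56.3, 58.0 and 63.2 cpm in sh1Control and rose to 81.7, 78.7 and 87.6 cpm in shD3 #1 (log2 fold change 0.48 ± 0.07, adjusted p = 3.88e-06). In shD3 #4 it fell from 69.2, 68.0 and 64.1 cpm to 43.4, 48.9 and 48.5 cpm (log2 fold change -0.52 ± 0.07, adjusted p = 9.22e-08). The groups were apart in each of these comparisons, and in the deep libraries the EIF3G groups overlapped, with a difference of 0.04 ± 0.05 (adjusted p = 0.564).

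EIF3A, the largest subunit, was the only member of the complex that fell in all 4 comparisons, with calls in 3 of them that depended on single libraries. It stood at 537, 493 and 469 cpm in sh1Control and 423, 444 and 377 cpm in shD3 #1 (log2 fold change -0.27 ± 0.07, adjusted p = 0.00192). The changes were -0.21 ± 0.07 in shD3 #4 (adjusted p = 0.0130), -0.33 ± 0.10 in siD3 #3 (adjusted p = 0.0345) and -0.11 ± 0.04 in the deep libraries (adjusted p = 0.0333), none of them as large as 1.5-fold. Its adjusted p was over 0.05 in siD3 #3 without either siControl library, without replicate 1 or 2 of siD3 #3 and with at least 10 counts in every library. It was likewise over 0.05 in shD3 #4 without sh4Control replicate 2 or shD3 #4 replicate 1 or 3, and in the deep libraries without replicate 1 or 2 of deep sh1Control, without replicate 1 of deep shD3 #1 and with the size factors of DESeq2. EIF3B, a core subunit, fell by 0.57 ± 0.09 in siD3 #3 (adjusted p = 0.00127), the largest fall of the complex in that knockdown. EIF3CL, a near-identical copy of EIF3C on chromosome 16, went from 2.19, 2.66 and 1.55 cpm to 0.554, 0.659 and 0.637 cpm in the deep libraries (log2 fold change -1.78 ± 0.25, adjusted p = 2.56e-06). EIF3C rose by 0.16 ± 0.06 in the same libraries (adjusted p = 0.0355, lost without deep sh1Control replicate 3 or deep shD3 #1 replicate 2), and the division of reads between the copies is uncertain.

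Among the cap-binding and scanning factors, all 3 scaffolds of the eIF4G family, which link mRNA to eIF3, fell in shD3 #1. There 27.9% of all genes fell. EIF4G2 stood at 1073, 1048 and 1084 cpm in sh1Control and at 521, 531 and 614 cpm in shD3 #1, 52.0% of the control mean. It fell by 0.94 ± 0.06 on the log2 scale (adjusted p = 7.23e-11), in the deep libraries by 0.79 ± 0.04 (adjusted p = 2.51e-12) and in shD3 #4 by 0.47 ± 0.07 (adjusted p = 1.53e-06), and in siD3 #3 the difference was -0.20 ± 0.11 (adjusted p = 0.202). EIF4G1, the main scaffold, stood at 460, 465 and 448 cpm in sh1Control and at 302, 324 and 290 cpm in shD3 #1. Its log2 fold change of -0.58 ± 0.06 (adjusted p = 2.89e-08) lay just short of a 1.5-fold change, and it was -0.54 ± 0.05 in the deep libraries (adjusted p = 1.60e-09) and -0.19 ± 0.07 in shD3 #4 (adjusted p = 0.0190). EIF4G3 went in opposite directions under the shRNAs. It stood at 112, 112 and 104 cpm in sh1Control and at 69.6, 67.4 and 65.4 cpm in shD3 #1 (log2 fold change -0.70 ± 0.06, adjusted p = 4.92e-09), and at 87.5, 93.9 and 103 cpm in sh4Control and 107, 121 and 110 cpm in shD3 #4 (0.25 ± 0.07, adjusted p = 0.00299).

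The helicase genes of the eIF4A family differed from each other. EIF4A3, whose product sits in the exon junction complex and acts in splicing and nonsense-mediated decay more than in scanning, fell in all 4 comparisons. It stood at 102 and 103 cpm in siControl and at 57.6, 55.0 and 63.0 cpm in siD3 #3, 57.3% of the control mean (log2 fold change -0.80 ± 0.09, adjusted p = 0.000290). In shD3 #1, shD3 #4 and deep shD3 #1 it fell by 0.27 ± 0.07, 0.34 ± 0.07 and 0.36 ± 0.05. EIF4A2 stood at 205, 195 and 190 cpm in sh1Control and fell to 141, 142 and 156 cpm in shD3 #1 (log2 fold change -0.43 ± 0.06, adjusted p = 3.57e-06), and it rose in shD3 #4 from 185, 178 and 185 cpm to 208, 216 and 217 cpm (0.23 ± 0.06, adjusted p = 0.00272). EIF4A1, usually the most abundant of the helicases, was listed at 10.9 to 18.7 cpm in sh1Control and shD3 #1 and at 0 in every deep library. It fell in shD3 #4 by 0.26 ± 0.09 (adjusted p = 0.0217). Other genes, among them the readthrough gene SENP3-EIF4A1, cover 47.4% of its exon bases, so its level is uncertain.

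EIF4E, the cap-binding protein, fell in shD3 #4 from 39.2, 35.2 and 32.0 cpm to 24.8, 27.6 and 25.0 cpm (log2 fold change -0.46 ± 0.08, adjusted p = 1.20e-05) and in siD3 #3 by 0.44 ± 0.09 (adjusted p = 0.00620). In shD3 #1 it fell in the first libraries, where the groups overlapped (-0.20 ± 0.08, adjusted p = 0.0442), and rose in the deep libraries, where they did not (0.20 ± 0.07, adjusted p = 0.0156). The first of these calls was lost on leaving out any 1 of its libraries but shD3 #1 replicate 3 and in DESeq2, and the second without deep sh1Control replicate 2 or deep shD3 #1 replicate 2 or 3. EIF4E2, a relative that represses translation of bound mRNAs, did not pass the adjusted p in any comparison, with log2 fold changes between -0.09 and 0.06. EIF4E3, at 2.80 to 5.60 cpm in the first libraries, differed by 0.52 ± 0.18 in siD3 #3 (adjusted p = 0.0572), and fell by 0.36 ± 0.09 in the deep libraries (adjusted p = 0.00104). EIF4B, which stimulates the helicase, rose by 0.32 ± 0.08 in shD3 #1 (adjusted p = 0.00185) and fell by 0.23 ± 0.07 in shD3 #4 (adjusted p = 0.00441), and EIF4H, a smaller protein of the same function, rose by 0.21 ± 0.06 (adjusted p = 0.00445) and fell by 0.47 ± 0.07 (adjusted p = 3.97e-07).

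EIF4EBP2, an inhibitor that binds eIF4E when it is not phosphorylated, passed both thresholds in opposite directions under the siRNA and under an shRNA. It stood at 50.3, 47.6 and 45.9 cpm in sh4Control and at 31.9, 30.0 and 30.1 cpm in shD3 #4, a fall of 0.64 ± 0.07 (adjusted p = 2.28e-09). In siControl it stood at 58.7 and 53.3 cpm and in siD3 #3 at 87.3, 95.1 and 79.9 cpm, a rise of 0.64 ± 0.10 (adjusted p = 0.00199). The groups were apart in both comparisons, and they overlapped in shD3 #1, where the difference was -0.13 ± 0.08 (adjusted p = 0.176). Without siControl replicate 2 the rise was under 1.5-fold, with an adjusted p still under 0.05. EIF4ENIF1, which carries eIF4E to the nucleus and to processing bodies, passed the adjusted p in no comparison. EIF4EBP3 had at most 3 counts in the first libraries and 11 to 36 in the deep ones, where it differed by 0.56 ± 0.39 (adjusted p = 0.224), and 73.2% of its exon bases lie in ANKHD1-EIF4EBP3.

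**Figure D3:**
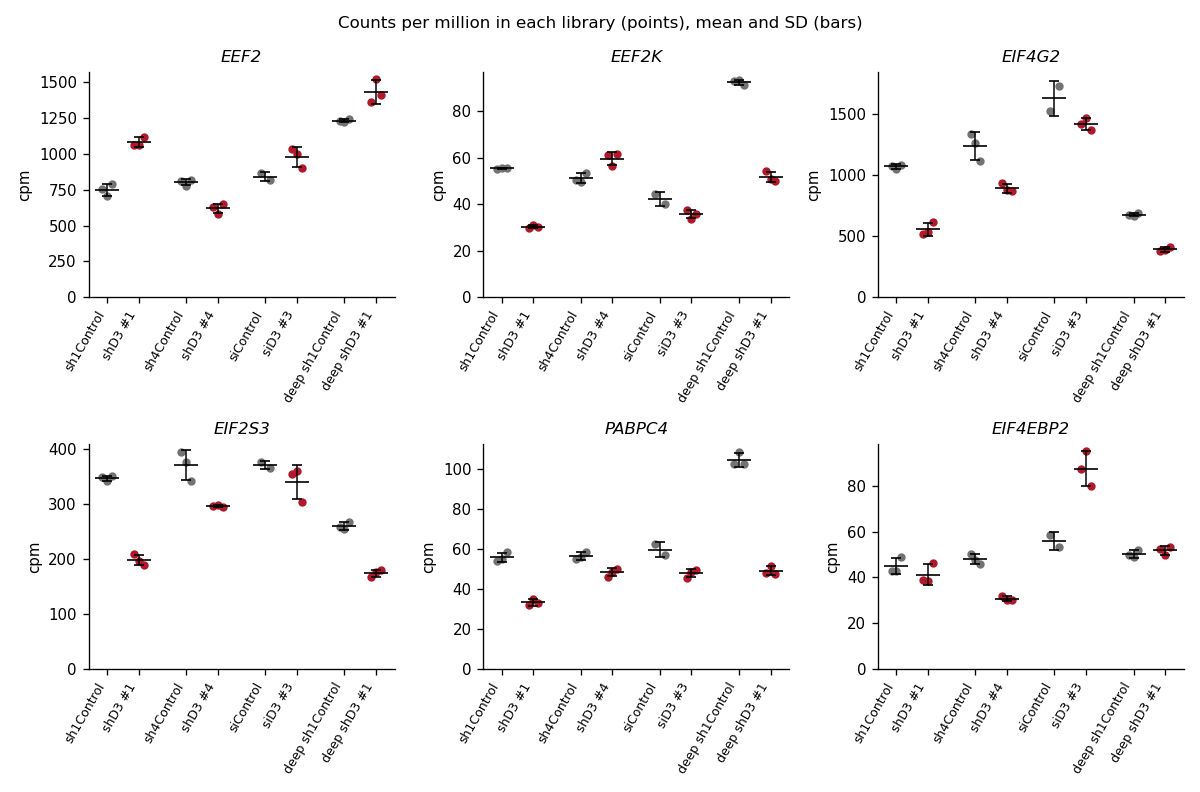
Points give cpm after TMM scaling in each library of the 8 groups for 6 genes, grey for controls and red for knockdowns, with black bars for the mean and SD on axes that start at 0. EEF2 and EEF2K lie on opposite sides of their controls under shD3 #1 and again, the other way round, under shD3 #4, while EIF4EBP2 is above its controls under siD3 #3 and below them under shD3 #4.

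EIF5B, the GTPase that joins the large subunit, fell in shD3 #1 by 0.34 ± 0.07 (adjusted p = 0.000568). EIF6, which keeps the subunits apart, rose there by 0.29 ± 0.09 with overlapping groups (adjusted p = 0.0126) and fell in shD3 #4 by 0.40 ± 0.08 (adjusted p = 0.000200).

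Of the 3 genes for eIF5A, the protein that carries the modified lysine hypusine, 2 fell in shD3 #4, 1 fell in siD3 #3 and all 3 fell in the deep libraries. Over all genes, 21.1% fell in shD3 #4, 16.6% in siD3 #3 and 31.6% in the deep libraries. EIF5A stood at 282 and 323 cpm in siControl and at 185, 187 and 181 cpm in siD3 #3, 61.0% of the control mean (log2 fold change -0.71 ± 0.10, adjusted p = 0.000724). It fell by 0.48 ± 0.07 in shD3 #4 (adjusted p = 2.57e-07) and by 0.38 ± 0.05 in deep shD3 #1 (adjusted p = 5.05e-07), and in the first shD3 #1 libraries its groups overlapped (0.05 ± 0.06, adjusted p = 0.505). EIF5A2, an isoform of narrow tissue range, stood at 13.3, 13.1 and 10.9 cpm in sh4Control and at 8.51, 8.26 and 8.03 cpm in shD3 #4 (log2 fold change -0.59 ± 0.11, adjusted p = 2.46e-05). It was under 1.5-fold without replicate 1 or 2 of sh4Control and without replicate 3 of shD3 #4, and it differed by 0.13 ± 0.12 in siD3 #3 (adjusted p = 0.462). EIF5AL1, an intronless copy of EIF5A, fell in the deep libraries from 1.89, 1.67 and 1.21 cpm to 0.391, 0.439 and 0.360 cpm (log2 fold change -2.0 ± 0.28, adjusted p = 2.06e-06). Its call in the first libraries of shD3 #1 (-0.78 ± 0.32, adjusted p = 0.0471, 3 to 27 counts) was lost on leaving out any 1 of the 6 libraries, it differed by -0.67 ± 0.33 in shD3 #4 (adjusted p = 0.0989), and its reads cannot be told from those of EIF5A with certainty.

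Of the eEF1 genes, EEF1A1, whose product delivers aminoacyl-tRNA, passed the adjusted p in no comparison. It stood at 1551, 1416 and 1584 cpm in sh1Control and at 1613, 1513 and 2096 cpm in shD3 #1 (log2 fold change 0.20 ± 0.12, adjusted p = 0.202), where replicate 3 lay apart from the other libraries. EEF1A2, the isoform of muscle and neurons, rose in siD3 #3 from 118 and 95.9 cpm to 156, 150 and 126 cpm (0.42 ± 0.13, adjusted p = 0.0342), a call that was lost without siControl replicate 2 or siD3 #3 replicate 1 or 2, and fell in the deep libraries by 0.27 ± 0.04 (adjusted p = 8.40e-06). EEF1B2, a subunit of the exchange factor for eEF1A, stood at 113, 102 and 106 cpm in sh1Control and at 134, 130 and 183 cpm in shD3 #1 (0.47 ± 0.13, adjusted p = 0.0195), and its log2 fold change without replicate 3 of shD3 #1 was 0.30. It fell in shD3 #4 by 0.33 ± 0.07 (adjusted p = 0.000245), in siD3 #3 by 0.36 ± 0.10 (adjusted p = 0.0225) and in the deep libraries by 0.33 ± 0.05 (adjusted p = 2.37e-06). EEF1D fell in shD3 #4 and siD3 #3 by 0.26 ± 0.07 (adjusted p = 0.00141) and 0.38 ± 0.09 (adjusted p = 0.0124). The siD3 #3 call of EEF1B2 was lost without siControl replicate 2 or siD3 #3 replicate 1. That of EEF1D was lost without siControl replicate 1 or siD3 #3 replicate 2.

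EEF1G, the remaining subunit, was listed at 0 or 1 count in every first library and at 15030 to 30516 counts in the deep libraries. In GENCODE 44, 99.7% of its exon bases also belong to ENSG00000255508, so that the zeros give no level. EEF1D showed the reverse, with 3228 to 5903 counts in the first libraries of sh1Control and shD3 #1 and 30 to 97 in the deep ones. The tables therefore differ in how reads were assigned to these genes, and no level was compared between them.

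EEF2, the translocase, rose in shD3 #1 and fell in shD3 #4. It stood at 754, 703 and 789 cpm in sh1Control and at 1060, 1062 and 1118 cpm in shD3 #1, 144% of the control mean (log2 fold change 0.53 ± 0.06, adjusted p = 1.36e-07). In sh4Control it stood at 808, 778 and 820 cpm and in shD3 #4 at 626, 582 and 649 cpm, 77.2% of the control mean (-0.37 ± 0.07, adjusted p = 2.00e-05). It rose by 0.22 ± 0.05 in the deep libraries (adjusted p = 0.000548), and in siD3 #3 it differed by 0.22 ± 0.11 (adjusted p = 0.156).

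EEF2K, the kinase that inactivates eEF2, changed the other way. It stood at 55.1, 55.4 and 55.5 cpm in sh1Control and at 29.8, 30.9 and 30.1 cpm in shD3 #1, 54.7% of the control mean (log2 fold change -0.87 ± 0.07, adjusted p = 6.12e-10). Its deep libraries went from 92.7, 93.1 and 91.0 cpm to 54.1, 50.7 and 50.1 cpm (-0.84 ± 0.05, adjusted p = 2.43e-12). The groups stood far apart in both sets of libraries, and in shD3 #4 it rose from 50.3, 49.5 and 53.5 cpm to 61.0, 56.3 and 61.6 cpm (0.22 ± 0.07, adjusted p = 0.00626), a call that was lost without sh4Control replicate 2. EEF2KMT, a methyltransferase of eEF2, fell in siD3 #3 from 19.2 and 18.5 cpm to 11.3, 11.1 and 12.2 cpm (-0.71 ± 0.12, adjusted p = 0.00226) and in shD3 #4 by 0.45 ± 0.09 (adjusted p = 0.000170), and in shD3 #1 it differed by 0.00 ± 0.11 (adjusted p = 0.986). EEF1AKMT2, a lysine methyltransferase of eEF1A, fell in siD3 #3 from 5.45 and 5.89 cpm to 3.54, 2.51 and 3.74 cpm (-0.79 ± 0.22, adjusted p = 0.0234), a call that was lost without either siControl library and without replicate 1 or 2 of siD3 #3. EEF1AKMT4, at 23 to 39 counts, rose in shD3 #1 (0.70 ± 0.26, adjusted p = 0.0294) with 3.97 cpm in replicate 3 against 2.14 and 1.92 cpm in the others, and the call was lost without that library, without replicate 1 or 2 of sh1Control and in DESeq2. The readthrough gene EEF1AKMT4-ECE2 covers 49.2% of the exon bases of EEF1AKMT4, so its level is uncertain.

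Both release factor genes of general use changed. ETF1, which encodes the stop codon-reading eRF1, fell in all 4 comparisons. It stood at 194, 192 and 192 cpm in sh1Control and at 135, 134 and 165 cpm in shD3 #1 (log2 fold change -0.42 ± 0.07, adjusted p = 4.04e-05), and fell by 0.33 ± 0.07 in shD3 #4 (adjusted p = 0.000106), 0.28 ± 0.09 in siD3 #3 (adjusted p = 0.0422) and 0.37 ± 0.05 in the deep libraries (adjusted p = 4.26e-07). The siD3 #3 call was lost without either siControl library, without replicate 1 or 2 of siD3 #3 and with at least 10 counts in every library. GSPT1, which encodes the GTPase eRF3a, rose in shD3 #1 by 0.25 ± 0.06 (adjusted p = 0.00104) and fell in shD3 #4 by 0.49 ± 0.06 (adjusted p = 5.93e-08). Its paralogue GSPT2 fell in shD3 #1 by 0.51 ± 0.11 (adjusted p = 0.000443) and in the deep libraries from 13.4, 11.1 and 11.8 cpm to 8.02, 6.73 and 8.73 cpm (-0.62 ± 0.10, adjusted p = 1.86e-05), which was under 1.5-fold without replicate 1 of deep sh1Control or replicate 2 of deep shD3 #1.

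PABPC4, one of the cytoplasmic poly(A)-binding proteins, fell in all 4 comparisons. It stood at 54.0, 54.7 and 58.2 cpm in sh1Control and at 31.7, 35.1 and 32.8 cpm in shD3 #1 (log2 fold change -0.74 ± 0.07, adjusted p = 1.35e-08). In the deep libraries it went from 102, 109 and 102 cpm to 47.9, 51.4 and 47.6 cpm, 46.9% of the control mean (-1.09 ± 0.05, adjusted p = 5.80e-14), with smaller falls of 0.23 ± 0.07 in shD3 #4 (adjusted p = 0.00542) and 0.32 ± 0.09 in siD3 #3 (adjusted p = 0.0258), the last of which was lost without siControl replicate 1 or siD3 #3 replicate 1 or 2. PABPC1, the main protein of this kind, overlapped its controls in every comparison, with log2 fold changes between -0.06 and 0.12.

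Of the 62 members tested in all 4 comparisons, 4 fell at the adjusted p in each (6.45%, against 5.82% of all genes tested in all 4), EIF3A, EIF4A3, ETF1 and PABPC4, and none rose in each (against 3.43%). Without siControl replicate 1, or without replicate 1 or 2 of siD3 #3, only EIF4A3 was left. The first and deep comparisons of shD3 #1 use the same shRNA, and all libraries come from A549 cells.

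The shRNAs were set against each other in 1 model of all 17 first libraries, in which the difference between the 2 log2 fold changes was tested. Of 63 members tested, 15 differed past both thresholds (23.8%, against 25.6% of all genes), 12 of them more positive and 3 more negative in shD3 #1. At the adjusted p alone 37 differed, 29 more positive (46.0%, against 19.5% of all genes) and 8 more negative (12.7%, against 19.6%). Among those past both thresholds the largest difference was that of EEF2K (-1.09 ± 0.10, adjusted p = 2.56e-09), followed by EIF3G (0.99 ± 0.10, adjusted p = 2.15e-08), EIF4G3 (-0.95 ± 0.10, adjusted p = 5.66e-08) and EEF2 (0.90 ± 0.10, adjusted p = 9.30e-08). The share of members past both thresholds was thus no higher than that of all genes. The control groups differed as well. For the 12 more positive members the sh1Control mean lay below the sh4Control mean, and the shD3 #1 mean above the shD3 #4 mean. The control means were 104.9 against 135.0 cpm for EEF1B2 but 28.75 against 29.31 cpm for EIF2B4. For EEF2K, EIF4G3 and EIF4A2 both orders were reversed. The part of the control levels in these differences was not tested.

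Side by side, 12 of the 63 members rose in shD3 #1 and fell in shD3 #4 at the adjusted p (19.0%, against 5.85% of all genes tested in both), namely EIF1AX, EIF2S1, EIF2B1, EIF3G, EIF3I, EIF3L, EIF4B, EIF4H, EIF6, EEF1B2, EEF2 and GSPT1. Of these, EIF1AX, EIF2S1, EIF2B1, EIF3L and EIF6 had at least 1 call that was lost when a library was left out. The level of EIF3L is also uncertain for its shared exon bases. EIF4A2, EIF4G3 and EEF2K did the opposite (4.76%, against 5.79%), 10 fell in both (15.9%, against 8.98%) and none rose in both (against 7.22%).

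**Figure D4:**
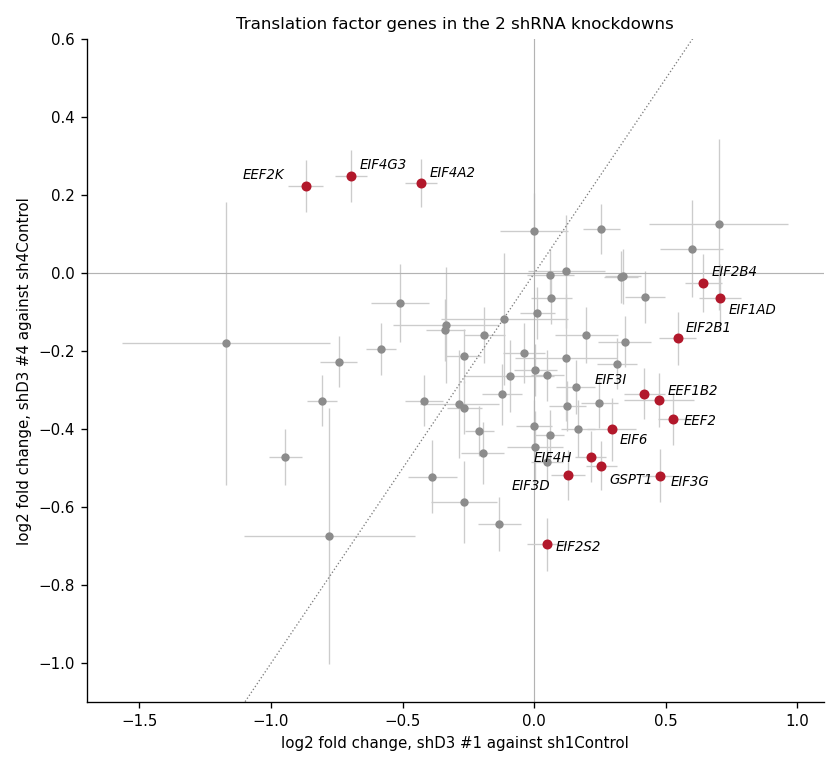
Each point is a translation factor gene tested in both comparisons, with its log2 fold change in shD3 #1 on the x axis and in shD3 #4 on the y axis, bars for the standard errors and a dotted line of equal change. The 15 genes in red differed past both thresholds, and 12 of them lie right of and below the line, EEF2K, EIF4G3 and EIF4A2 left of and above it.

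The siRNA was compared with the mean of both shRNAs in the same model. That mean joins effects of shD3 #1 and shD3 #4 that were opposed for some members, such as EEF2 (0.53 and -0.37) and EEF2K (-0.87 and 0.22). A small count of differences therefore does not show that the siRNA was like either shRNA. Delivery and harvest day differed together and cannot be told apart. Only 3 of 63 members differed past both thresholds (4.76%, against 16.3% of all genes), and each was more positive in siD3 #3. At the adjusted p alone 24 differed, 10 more positive (15.9%, against 14.3% of all genes) and 14 more negative (22.2%, against 14.6%). Those past both thresholds were EIF4EBP2 (1.04 ± 0.11, adjusted p = 5.56e-08), EIF4E3 (0.76 ± 0.23, adjusted p = 0.0134) and GSPT2 (0.66 ± 0.15, adjusted p = 0.00152). The call of EIF4E3 was lost without siControl replicate 2, and that of GSPT2 without siControl replicate 1.

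Of the 62 members tested in both sets of shD3 #1 libraries, 38 passed the adjusted p in the first and 41 in the deep libraries, and 30 did so in the same direction, 78.9% of the first list and 73.2% of the deep list. Over all 13884 genes tested in both these shares were 77.9% and 68.3%. Among the 30, 14 rose and 16 fell, and 3 members passed in opposite directions, EIF3K, EIF4E and EEF1B2. EIF3K, a peripheral subunit of eIF3, rose from 143, 139 and 146 cpm to 160, 158 and 194 cpm in the first libraries (0.25 ± 0.07, adjusted p = 0.00449) and fell from 129, 128 and 133 cpm to 104, 105 and 123 cpm in the deep libraries (-0.23 ± 0.05, adjusted p = 0.00118). Replicate 3 of shD3 #1 was the shallowest first library and the highest of its group for 42 of 63 members, and without it EIF3K had a log2 fold change of 0.15 and EEF1B2 one of 0.30. Replicate 1 of deep shD3 #1 was the lowest of its group for 44 of 65 members, and in the shD3 #4 comparison replicate 3 of sh4Control was the lowest of its group for 44 of 63. The part of these libraries in the differences between the sets was not tested.

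**Figure D5:**
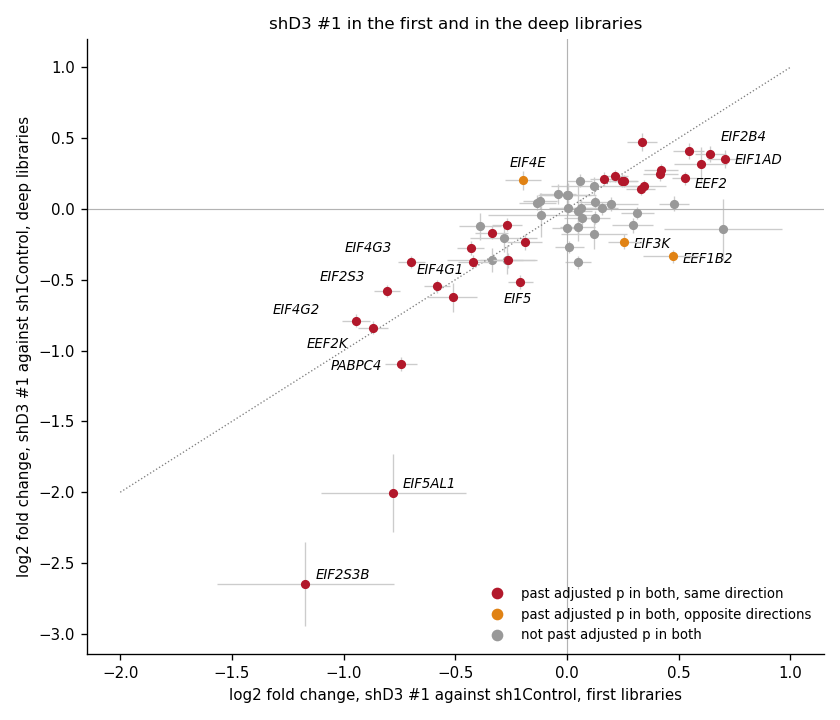
Each point is a translation factor gene, with the log2 fold change of shD3 #1 in the first libraries on the x axis and in the deep libraries on the y axis, bars for the standard errors and a dotted line of equal change. The 30 red points passed the adjusted p in both with the same direction, and the 3 orange points, EIF4E, EIF3K and EEF1B2, passed with opposite directions.

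The cytosolic ribosomal protein genes, of which most have the tract shown above, mostly rose in the first libraries of shD3 #1 and fell in its deep libraries, as EIF3K and EEF1B2 did. Their median log2 fold change over 79 genes was 0.45 in shD3 #1, where 48 rose (60.8%, against 28.5% of all genes) and 2 fell (2.53%, against 27.9%). It was -0.42 in shD3 #4, where 0 rose (against 20.1%) and 62 fell (78.5%, against 21.1%). In siD3 #3 it was -0.23, and 1 rose (1.27%, against 16.8%) and 16 fell (20.3%, against 16.6%). In the deep libraries of shD3 #1 it was -0.33, and of 77 tested 3 rose (3.9%, against 31.2%) and 42 fell (54.5%, against 31.6%). The ribosomal protein genes took 1.47% ± 0.10 of counts in sh1Control, 2.08% ± 0.209 in shD3 #1 and 2.31% in its replicate 3 (SD, n = 3 per group), and 1.74% ± 0.0321 and 1.48% ± 0.146 in the deep controls and deep shD3 #1. Their part in the differences of EIF3K and EEF1B2 between the sets was not tested.

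The 13 members with the tract had a median of 0.13 in shD3 #1, where 5 rose and 4 fell, beside -0.04 for the 37 tested members that were searched and had none (13 rose, 12 fell). In shD3 #4 the medians were -0.23 (1 rose, 7 fell) and -0.31 (2 rose, 22 fell), in siD3 #3 -0.13 (0 rose, 3 fell) and -0.16 (1 rose, 13 fell), and in the deep libraries -0.14 (2 rose, 7 fell) and 0.05 (14 rose, 13 fell). Over all genes, 28.5% rose and 27.9% fell in shD3 #1, and 20.1% and 21.1% in shD3 #4. These shares were 16.8% and 16.6% in siD3 #3, and 31.2% and 31.6% in the deep libraries. In each first comparison members fell both with and without the tract. EEF2K, among the lowest in shD3 #1, and EIF4A3, the lowest in siD3 #3, have no tract at the starts printed above.

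Of the 6 genes for eIF2 kinases and their opposing phosphatase subunits, 3 rose and 2 fell in shD3 #1, 1 rose and 1 fell in shD3 #4, 1 rose in siD3 #3, and 3 rose and 2 fell in the deep libraries. All genes together gave 28.5% that rose and 27.9% that fell in shD3 #1, and 20.1% and 21.1% in shD3 #4. They gave 16.8% and 16.6% in siD3 #3, and 31.2% and 31.6% in the deep libraries. PPP1R15A, the stress-induced subunit (GADD34) that directs dephosphorylation of eIF2, stood at 29.6, 28.7 and 28.3 cpm in sh1Control and at 60.1, 60.6 and 59.0 cpm in shD3 #1 (log2 fold change 1.05 ± 0.07, adjusted p = 2.87e-11). In siD3 #3 it rose from 34.7 and 29.2 cpm to 66.1, 68.2 and 105 cpm (1.32 ± 0.23, adjusted p = 0.00737). It fell in shD3 #4 by 0.28 ± 0.08 (adjusted p = 0.00643) and rose in the deep libraries by 0.19 ± 0.04 (adjusted p = 0.000514).

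Of 25 further regulators and accessory factors, 8 rose (32.0%, against 28.5% of all genes) and 3 fell (12.0%, against 27.9%) in shD3 #1. In shD3 #4, 4 rose (16.0%, against 20.1%) and 12 fell (48.0%, against 21.1%). In siD3 #3, 4 rose (16.0%, against 16.8%) and 7 fell (28.0%, against 16.6%). Among the deep libraries, 9 rose (36.0%, against 31.2%) and 7 fell (28.0%, against 31.6%). EIF4EBP1, the best known inhibitor of eIF4E, stood at 29.6, 27.6 and 32.6 cpm in sh1Control and at 43.7, 40.5 and 56.2 cpm in shD3 #1 (0.63 ± 0.11, adjusted p = 0.000339). It fell in shD3 #4 from 40.1, 41.2 and 31.0 cpm to 23.2, 25.7 and 24.5 cpm (-0.62 ± 0.09, adjusted p = 1.29e-06) and in siD3 #3 from 44.7 and 54.4 cpm to 28.5, 29.0 and 30.9 cpm (-0.75 ± 0.11, adjusted p = 0.00117). Its direction in siD3 #3 was thus opposite to that of EIF4EBP2, and in the deep libraries its groups overlapped (0.01 ± 0.06, adjusted p = 0.942).

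PDCD4, which blocks the eIF4A helicase, rose in shD3 #4 from 28.3, 29.6 and 31.6 cpm to 64.2, 66.5 and 63.6 cpm (1.12 ± 0.07, adjusted p = 1.42e-15) and in siD3 #3 from 18.3 and 21.6 cpm to 49.9, 48.3 and 38.5 cpm (1.20 ± 0.14, adjusted p = 0.000388). It fell in shD3 #1 by 0.54 ± 0.08 (adjusted p = 5.35e-06) and in the deep libraries by 0.55 ± 0.08 (adjusted p = 3.50e-06). Of the 10 mitochondrial translation factor genes, 1 rose and 3 fell in shD3 #1, none passed in shD3 #4, 1 rose and 4 fell in siD3 #3, and 2 rose and 4 fell in the deep libraries, none of them reaching 1.5-fold. The shares of all genes that rose and fell were 28.5% and 27.9% in shD3 #1, and 20.1% and 21.1% in shD3 #4. They were 16.8% and 16.6% in siD3 #3, and 31.2% and 31.6% in the deep libraries.

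Of the 10 members listed as carrying a known tract from general knowledge, 9 were tested in the first libraries. In shD3 #1, 4 of them rose and none fell (median 0.20), in shD3 #4, 6 fell and none rose (-0.26), and in siD3 #3, 3 fell and none rose (-0.07). Among the deep libraries, 2 of 10 rose and 1 fell (0.02). The shares over all genes that rose and fell were 28.5% and 27.9% in shD3 #1, and 20.1% and 21.1% in shD3 #4. They were 16.8% and 16.6% in siD3 #3, and 31.2% and 31.6% in the deep libraries.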

How the data were processed

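Libraries of rRNA-depleted total RNA from A549 cells were read as 2 tables of raw counts per gene, which the authors deposited after trimming with Trimmomatic 0.40 and counting with STAR 2.7.10a on GRCh38.p14 (versions from the submitters' processing notes). The first table, of 17 libraries, carries Ensembl identifiers and the second, of 6, gene symbols, so the tables were fitted separately. Groups came from the sample labels. The members and lists were chosen with earlier results of these data known.

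The quasi-likelihood test of edgeR 4.0.16 (R 4.3.3) set every knockdown against its control group, with TMM scaling, the default filter on low counts and Benjamini-Hochberg adjustment over all genes tested, and called at an adjusted p under 0.05, alone or with a change of at least 1.5-fold. Differences between knockdowns were contrasts in 1 fit of the 17 first libraries. The SE was derived from the log2 fold change and the F statistic. THUMPD3 was also tested by an exact permutation test in scipy 1.17.1. Alternatives were DESeq2 1.42.0, its size factors in edgeR, other filters and thresholds, 1 fit of all 17 libraries, a replicate block and each library left out. Scripts were tested on simulated data. A library of 9854294 to 59974740 counts limits the precision of low genes most.

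Named genes were those past both thresholds in any comparison, those past the adjusted p with the same sign in all 4, the 3 highest and 3 lowest in each, and fixed paralogue families. Of the pathway lists, regulators past both thresholds in at least 2 comparisons were named. Other members named were chosen after their values were seen. EEF1E1-BLOC1S5, a readthrough gene, was left out. Start windows and annotation came from RefSeq and GENCODE tables of the same build.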

Additional observations from a re-analysis of the deposited data

Results flagged for a closer look

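The change differed between the 2 shRNAs, by the test of the difference itself, for 15 members. On the log2 scale, shD3 #1 minus shD3 #4, the difference was 0.77 for EIF1AD, 0.74 for EIF2S2, 0.71 for EIF2B1 and 0.66 for EIF2B4. It was 0.64 for EIF3D, 0.99 for EIF3G and 0.72 for EIF3I among the eIF3 subunits. For the cap-binding and scanning factors it was -0.66 for EIF4A2, -0.95 for EIF4G3 and 0.68 for EIF4H. It was 0.69 for EIF6, 0.80 for EEF1B2, 0.90 for EEF2, -1.09 for EEF2K and 0.75 for GSPT1. Members with a positive difference had a lower mean in sh1Control than in sh4Control, and those with a negative one a higher mean.

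The change under siD3 #3 differed from the mean of the shRNAs, by the same kind of test, for 3 members. This difference was 0.76 for EIF4E3, 1.04 for EIF4EBP2 and 0.66 for GSPT2.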

How the results depend on the processing

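No named call changed direction under any alternative run. Of 37 named calls past both thresholds, 19 were kept under every alternative and 18 were lost under at least 1. Of 80 further named calls past the adjusted p alone, 55 were kept under every alternative and 25 were lost under at least 1. Requiring a log2 fold change of at least 1 left 1 member past both thresholds in shD3 #1, 0 in shD3 #4, 0 in siD3 #3 and 4 in deep shD3 #1, and a test against the 1.5-fold threshold itself (glmTreat) left 4, 0 and 0 in the first libraries, as stricter criteria must. The median in siD3 #3 was -0.19 in DESeq2, -0.19 with no filter on low counts and -0.10 with at least 10 counts in every library. In 1 fit of all 17 libraries 6 members rose in siD3 #3. Leaving out 1 library at a time gave 7 to 12 members past both thresholds in shD3 #1, and in siD3 #3 gave 1 to 4 that rose, 9 to 24 that fell and medians of -0.22 to -0.15. Where no construction explains a shift, the cause was not tested.

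The replicate numbers did not pair the libraries, since the deviations of same-numbered libraries correlated by at most 0.074 in the shRNA and deep comparisons and by 0.142 and -0.108 in the siRNA comparison. With the replicate number as a block, 4 members rose in siD3 #3. The shallowest library, of 9854294 counts, limits genes of few counts most.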
